A study of Mus musculus with 106 samples.

Results

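A set of 9 genes of insulin and insulin-like growth factor (IGF) signaling were read in the peak lists of 2 histone marks: the ligand gene Igf1, the receptor genes Insr, Igf1r and Igf2r, the adaptor genes Irs1 and Irs2, the transcription factor genes Foxo1 and Foxo3, and Ager, which encodes the receptor for advanced glycation end products. These 9 of 21938 protein-coding genes were taken by name, not by any measured value. Chromatin immunoprecipitation with sequencing (ChIP-seq) pulls down DNA with an antibody and calls intervals rich in fragments as peaks. The acetyl mark H3K27ac, known from active enhancers and promoters, was mapped in 35 libraries, and so was H3K4me3, known mainly from promoters.

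All animals were C57BL/6J mice, aged 12 to 14 weeks when they entered the control or diabetic group. Diabetic mice had received streptozotocin, which destroys pancreatic beta cells, at 42 to 45 mg/kg per day for 5 days and, with blood glucose over 13.9 mmol/L, gave tissue after 6 weeks. HSC (hematopoietic stem cells, as labeled) were bone marrow depleted with antibodies to CD3, CD4, B220, Ter119 and Gr1, with no positive sort for stem cells given in the labels. BMDM (bone marrow-derived macrophages) were grown from marrow for 7 days with L929-conditioned medium in 5 mmol/L glucose, the same glucose for both disease groups, and then spent 16 h in medium alone (unstimulated) or with 10 ng/mL interferon-γ (IFN-γ) and 100 ng/mL lipopolysaccharide (LPS). Each mark had 6 libraries for each pair of disease group and cell state, except 5 of diabetic unstimulated BMDM. Nothing in the labels says which libraries share an animal, so the spread between libraries may be partly technical.

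Some libraries stood apart before any gene was read. Diabetic BMDM defined 26 H3K27ac regions held by all stimulated and no unstimulated libraries, and 27 with the opposite pattern. Control unstimulated BMDM replicates 5 and 6 held 17 to 18 of the first and 1 to 5 of the second set, where the other 4 held 1 to 9 and 10 to 26. Control LPS+IFN-γ BMDM replicate 5 held 5 and 25, where the other 5 held 13 to 25 and 1 to 8. These 3 libraries go against their labels; they were kept, and results that rest on them are given with and without them. H3K27ac lists held 51162 to 176559 peaks and H3K4me3 lists 13730 to 277213, and read depth is unknown, so every value below is a rank inside its own list. At H3K27ac promoters, 6 of 10 progenitor markers ranked higher in HSC than in unstimulated BMDM and 6 of 10 macrophage markers ranked lower. Of all genes tested, 30.5% differed there in either direction at a limma adjusted p under 0.05. Erythroid markers ranked higher in HSC for 4 of 4 genes, with a library's mean percentile of 55.8 to 75.1 against 35.2 to 45.0 in unstimulated BMDM, although Ter119 was among the depletion antibodies. Of LPS and IFN-γ response genes, 3 of 9 were higher and 3 lower in HSC. Of the other lists, T cell markers were higher in HSC for 2 of 4, neutrophil markers for 1 of 4, megakaryocyte markers lower for 1 of 3, and B cell and stroma markers for 0 of 4 and 0 of 3 in either direction. The LPS and IFN-γ response list had 2 of 9 genes higher after stimulation, where 2.43% of all genes differed. In H3K4me3 0 of 10 progenitor and 0 of 4 erythroid markers differed between HSC and unstimulated BMDM. There 3 of 9 macrophage markers were lower in HSC, where 15.0% of all genes differed. The other lists had at most 1 gene in a direction. For stimulation 0 of 5 response genes differed in H3K4me3.

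Insulin and IGF1 bind related receptor tyrosine kinases, which phosphorylate the adaptors IRS1 and IRS2 and so switch on phosphatidylinositol 3-kinase (PI3K) and the kinase AKT. AKT phosphorylates FOXO1 and FOXO3 and keeps these factors out of the nucleus, and FOXO factors are known to hold hematopoietic stem cells in quiescence. IGF2R has no kinase and carries IGF2 and mannose-6-phosphate proteins to lysosomes, and macrophages are a known source of IGF1.

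A promoter here is 1 kb to either side of any annotated start site, and the gene's value in a library is the −log10 p of its best promoter peak, ranked among all protein-coding genes and given as a percentile (genes without a peak share the lowest place). Promoter windows spanned 2.00 kb for Irs1, Irs2 and Foxo1 and up to 11.6 kb for Igf1r with its 6 start sites, so a gene with more start sites had more chances at a high peak. In H3K27ac, a promoter peak was present in 35 of 35 libraries for Insr, Igf1r, Igf2r, Irs2, Foxo1 and Foxo3, in 33 for Igf1, in 33 for Irs1 and in 31 for Ager. Of the 35 H3K4me3 libraries, all held a promoter peak for Insr, Igf1r, Irs1, Irs2, Foxo1 and Foxo3, 34 for Igf2r, 32 for Igf1 and 16 for Ager. No best promoter peak of the 9 genes covered the start site of another protein-coding gene. Non-coding genes did start within 2 kb of a start site of Igf2r (Gm23833), Irs2 (9530052E02Rik) and Foxo1 (Gm20402).

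Igf1 had the largest H3K27ac difference between HSC and unstimulated BMDM of the 9 genes. Its H3K27ac promoter percentile was 16.3 to 48.9 in HSC (median 41.7), 63.6 to 94.5 in unstimulated BMDM (median 80.5) and 61.9 to 99.2 in LPS+IFN-γ BMDM (median 71.6). Every HSC library lay below every BMDM library, and the 2 lowest HSC libraries, both from control mice, held no promoter peak at all. How many of all genes had cell states without overlap was not counted, for Igf1 or for the genes below. On the normal-score scale, which turns a rank into the matching value of a standard normal distribution, Igf1 was lower in HSC than in unstimulated BMDM by −1.28 ± 0.16 (SE; limma over 35 libraries, adjusted p = 8.92e-08). In this comparison 30.5% of 16981 genes tested were called at an adjusted p under 0.05. From such bulk lists, fewer marked cells and less mark per cell cannot be told apart. The median place of the peak in its whole list was 30770 in HSC, 4018 in unstimulated BMDM and 6054 after stimulation, and its median width was 350, 1133 and 1198 bp.

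The Igf1 peak did not sit at the outermost start site of the gene. Igf1 spans chr10:87858265-87937042 (plus strand, GRCm38), and the summit lay at a median of 2004 bp downstream of that 5′ end, near an internal start site (median distance 237 bp). The region around it, chr10:87859717-87861468, has its center in an untranslated part of Igf1 and in an intron of Igf1os on the other strand. Among the top 20000 H3K27ac peaks of each library it was held by 2 of 12 HSC, 11 of 11 unstimulated BMDM and 12 of 12 LPS+IFN-γ BMDM libraries (HSC against unstimulated BMDM, two-sided Fisher's exact test, adjusted p = 0.00106). Of all regions that could reach significance in this comparison, 33.1% were called. The RefSeq promoter of Igf1, chr10:87860861-87861160, lies downstream of this summit and belongs to another start site. The 300 bases around the strongest summit are chr10:87860119-87860418. Unlike most of the set, this RefSeq promoter was poor in CpG, with 6 CpG in 300 bases. Its GC content was 52.3% and its observed-over-expected CpG ratio 0.31, close to the median of 52.7% and 0.38 over 32851 promoters.

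**Figure D1:**
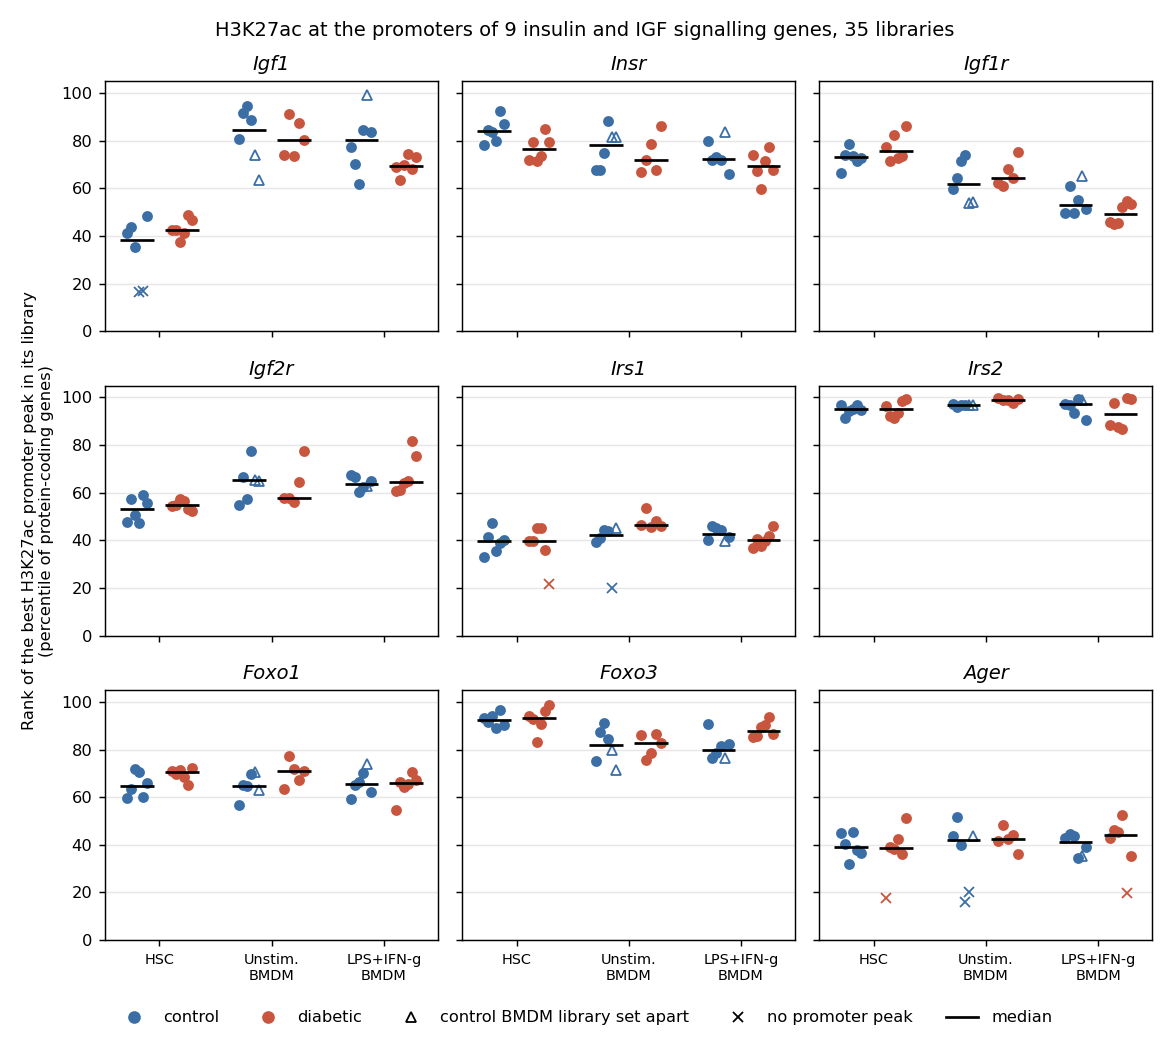
Percentile of the best H3K27ac promoter peak (vertical axis, percent of protein-coding genes) of each of the 9 genes in 35 libraries, by cell state and disease; triangles are the 3 control BMDM libraries set apart, crosses are libraries with no promoter peak and lines are group medians. Igf1 sits at a median of 41.7 in HSC and 80.5 in unstimulated BMDM, Igf1r steps down from 73.7 to 64.1 and 51.7, and Irs2 lies at 86.7 or above in every library.

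Among the receptors, Igf1r fell in steps from HSC to unstimulated and then to stimulated BMDM. Igf1r encodes the type 1 IGF receptor, the kinase that binds IGF1, at chr7:67952827-68233668 (plus strand). Its H3K27ac percentile was 66.4 to 86.3 in HSC (median 73.7), 54.0 to 75.3 in unstimulated BMDM (median 64.1) and 45.0 to 65.0 in LPS+IFN-γ BMDM (median 51.7). The groups overlapped at each step, but no stimulated library reached the lowest HSC library. Igf1r was higher in HSC than in unstimulated BMDM by 0.31 ± 0.08 (limma, adjusted p = 0.0024), and lower in stimulated than in unstimulated BMDM by −0.32 ± 0.08 (adjusted p = 0.0213), a comparison in which 2.43% of 16981 genes were called. It was the only one of the 9 genes called for stimulation. Without the 3 control libraries set apart, the stimulation difference was −0.40 (adjusted p = 0.00169), and Igf1 was then also called, at −0.48 ± 0.12 (adjusted p = 0.0116). Both calls on Igf1r were lost when peaks were ranked by fold enrichment instead of −log10 p, at 0.28 for HSC (limma adjusted p = 0.118) and −0.34 for stimulation (0.262). The median width of the Igf1r promoter peak was 3590 bp in HSC, 2975.5 bp in unstimulated and 3033.5 bp in stimulated BMDM of control mice, and 3572, 3059 and 1772.5 bp in those of diabetic mice, a difference that was not tested.

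Several intronic H3K27ac regions of Igf1r were held more often by HSC. A region of 1774 bp at chr7:67985016-67986789, an intron with its center 33.1 kb into the gene, was held by 10 of 12 HSC, 2 of 11 unstimulated and 4 of 12 stimulated BMDM libraries (Fisher's exact test, adjusted p = 0.0187). Any deposited peak, of whatever place in its list, was present there in 12 of 12, 9 of 11 and 11 of 12 libraries. With peaks required to cover 50% or more of the region, 3 HSC and 1 unstimulated library held it, with an exact adjusted p of 0.732. Smaller introns at 133 kb (chr7:68085242-68085701) and, named after its values were seen, 237 kb (chr7:68189393-68190444) were each held by 6 of 12 HSC and 0 of 11 unstimulated libraries (exact adjusted p = 0.0414 for both). These last calls were both lost without the 3 libraries set apart (exact adjusted p = 0.0579) and in 6 of 23 fits that left out 1 library, and with 50% coverage the intron at 237 kb had 4 HSC holders against 0 (exact adjusted p = 0.166). By contrast the intron at 176 kb, chr7:68127835-68130282, was held by 33 of 35 libraries, and the promoter region by 12 of 12, 11 of 11 and 7 of 12. The promoter region was not called between stimulated and unstimulated BMDM (exact adjusted p = 0.348).

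The promoter of Igf1r is shown because its rank differed between cell states, and the first of these introns because it was held by more HSC than unstimulated BMDM libraries. Capitals mark GC boxes (GGGCGG on either strand, bound by SP factors), of which the promoter has 2 and the element has 0, and both are written on the plus strand of GRCm38.
Igf1r promoter, chr7:67952007-67952306: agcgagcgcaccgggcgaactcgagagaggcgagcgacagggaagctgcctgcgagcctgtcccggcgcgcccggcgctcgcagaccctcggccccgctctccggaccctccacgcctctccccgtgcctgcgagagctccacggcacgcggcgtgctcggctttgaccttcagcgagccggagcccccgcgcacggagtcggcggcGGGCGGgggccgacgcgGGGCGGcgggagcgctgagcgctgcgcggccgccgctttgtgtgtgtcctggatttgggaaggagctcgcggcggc
Igf1r intron, chr7:67985438-67985737: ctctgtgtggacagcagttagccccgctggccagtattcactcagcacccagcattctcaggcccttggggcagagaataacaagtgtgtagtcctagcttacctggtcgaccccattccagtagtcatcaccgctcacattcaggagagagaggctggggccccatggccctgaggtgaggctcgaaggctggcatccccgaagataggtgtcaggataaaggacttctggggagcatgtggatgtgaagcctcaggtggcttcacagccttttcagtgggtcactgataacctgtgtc
The promoter has 48 CpG in 300 bases and a GC content of 76.0%, and the element around the strongest summit has 5 CpG and 56%.

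Igf2r moved the other way, lower in HSC than in macrophages. It encodes the cation-independent mannose-6-phosphate receptor at chr17:12682406-12769664 (minus strand), and its introns host the start of the non-coding RNA Airn, the classic antisense transcript of this imprinted locus. The H3K27ac percentile of Igf2r was 47.1 to 59.0 in HSC (median 54.7), 54.7 to 77.5 in unstimulated BMDM (median 64.5) and 60.4 to 81.8 in stimulated BMDM (median 64.5). HSC overlapped unstimulated BMDM, and no stimulated library fell to the highest HSC value. The difference between HSC and unstimulated BMDM was −0.26 ± 0.08 (limma, adjusted p = 0.012), or −0.48 when ranked on fold (adjusted p = 0.0127), and that between stimulated and unstimulated BMDM was 0.07 ± 0.08 (adjusted p = 0.719).

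The clearest single region of the 9 genes lay inside Igf2r. An H3K27ac region of 4561 bp at chr17:12753560-12758120, in an intron of Igf2r and also of Airn with its center 13.8 kb from the 5′ end of Igf2r, was held by 0 of 12 HSC, 11 of 11 unstimulated and 12 of 12 stimulated BMDM libraries (Fisher's exact test, adjusted p = 5.32e-05). Peaks of different libraries were merged into this region, and only 2 of 11 unstimulated and 0 of 12 HSC libraries covered 50% or more of it, too few to be tested. Below the top 20000 peaks, 5 of 6 control and 1 of 6 diabetic HSC libraries had any deposited peak there, at places from 40496 to 99565 in their lists. These lists held 100045 to 139452 peaks in control and 51162 to 130995 in diabetic HSC. A peak so far down can be missing because a list is shorter, and this contrast was not tested. In BMDM the best peak stood between place 2542 and 13274. Next to it, chr17:12751096-12753470, which lies within 1 kb of an internal Igf2r start site, was held by 2 of 12 HSC, 5 of 11 unstimulated and 12 of 12 stimulated libraries; the difference with stimulation had an exact p of 0.00458 and an adjusted p of 0.22. The region at the start of Airn, chr17:12741110-12742891, was held in H3K27ac by 5 of 12 HSC and 11 of 11 unstimulated libraries (exact adjusted p = 0.0199), while in H3K4me3 the region over the same start was held by 34 of 35 libraries. The lists carry no alleles, so the parental copies cannot be told apart.

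The Igf2r promoter and 300 bases around the strongest summit of the BMDM region, with their center 11.9 kb from the 5′ end, are shown next, with GC boxes in capitals. The promoter is written on the minus strand and the intron on the plus strand of GRCm38.
Igf2r promoter, chr17:12769657-12769956: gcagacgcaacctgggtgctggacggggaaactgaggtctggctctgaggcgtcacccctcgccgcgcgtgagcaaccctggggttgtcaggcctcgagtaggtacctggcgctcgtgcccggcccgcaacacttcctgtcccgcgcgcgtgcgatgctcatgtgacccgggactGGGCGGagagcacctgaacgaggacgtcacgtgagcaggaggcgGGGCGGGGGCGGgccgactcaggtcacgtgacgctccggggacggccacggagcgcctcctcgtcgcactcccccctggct
Igf2r intron, chr17:12757613-12757912: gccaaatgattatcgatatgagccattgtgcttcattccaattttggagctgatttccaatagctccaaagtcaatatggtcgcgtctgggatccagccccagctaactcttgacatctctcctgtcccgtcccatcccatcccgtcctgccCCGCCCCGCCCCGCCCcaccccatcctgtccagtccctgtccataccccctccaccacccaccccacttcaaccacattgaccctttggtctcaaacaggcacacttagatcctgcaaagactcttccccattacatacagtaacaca
The promoter holds 3 GC boxes, and the intron holds 3 that overlap each other, read from the minus strand. A search added after the results were known looked on both strands of 300 bases around the strongest summit of 44603 H3K27ac regions for letters bound by known factors. These were the AP-1 motif TGANTCA, found in 5.34% of regions, the PU.1 motif GAGGAAGT in 1.88%, the motif of the erythroid GATA factors, AGATAA, in 5.70%, the forkhead motif TGTTTAC in 2.13% and the GC box GGGCGG in 32.4%. In the Igf2r intron only the GC box was found.

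**Figure D2:**
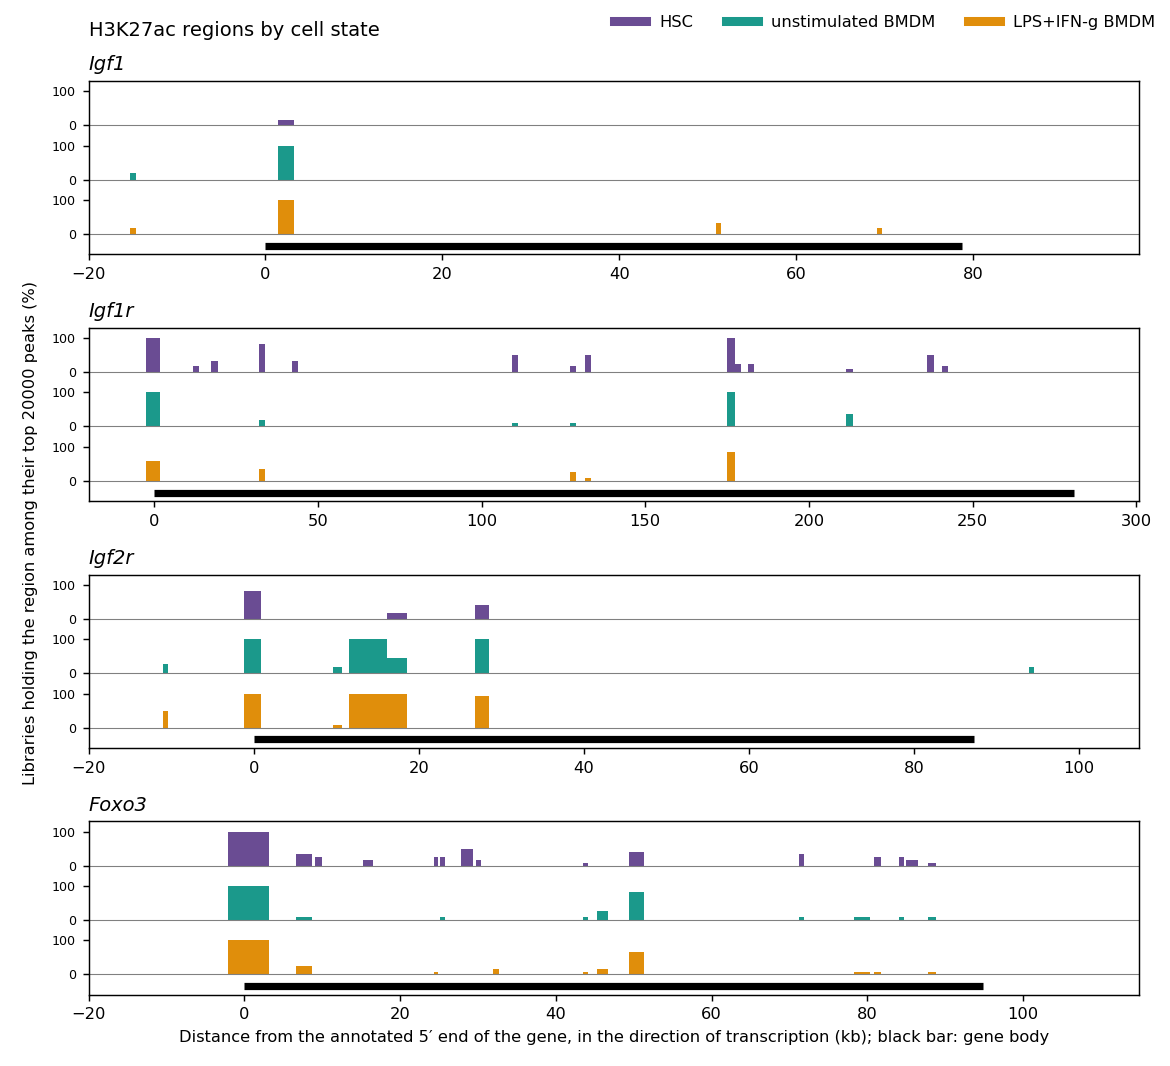
Percent of libraries of each cell state (vertical axes) that hold each H3K27ac region among their top 20000 peaks, against distance in kb from the annotated 5′ end along Igf1, Igf1r, Igf2r and Foxo3, with 20 kb flanks; black bars are gene bodies, and narrow regions are widened to be visible. The Igf2r region centered at 13.8 kb is held by 0 of 12 HSC and by all 23 BMDM libraries, and the Igf1r intron at 33.1 kb by 10 of 12 HSC and 2 of 11 unstimulated BMDM libraries.

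Insr, the insulin receptor gene at chr8:3122061-3279617 (minus strand), was not called between cell states. Its H3K27ac percentile was 71.4 to 92.5 in HSC (median 79.6), 67.0 to 88.1 in unstimulated BMDM (median 74.8) and 59.8 to 83.6 in stimulated BMDM (median 71.8), with wide overlap. The difference was 0.17 ± 0.10 for HSC against unstimulated BMDM (limma, adjusted p = 0.196) and −0.12 ± 0.10 for stimulation (adjusted p = 0.566). Its window held 3 H3K27ac regions, of which the promoter region was held by 35 of 35 libraries and an intron at chr8:3220736-3221844, 58.3 kb into the gene, by 31. The same intron was held in H3K4me3 by 27 libraries, 5 of 12 HSC and 22 of 23 BMDM. It was not called between HSC and unstimulated BMDM (Fisher's exact test, adjusted p = 0.214).

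The adaptor genes differed from each other in rank. Irs2, a single-start gene at chr8:10984681-11008458 (minus strand), ranked first of the 9 genes in H3K27ac in every cell state. The peak's summit lay at a median of 886 bp upstream of the Irs2 start, and the non-coding gene 9530052E02Rik also starts nearby. The percentile of Irs2 was 91.3 to 99.5 in HSC (median 95.0), 96.1 to 99.9 in unstimulated BMDM (median 97.4) and 86.7 to 99.7 in stimulated BMDM (median 97.2), and it lay above Foxo3, the next gene, in 31 of 35 libraries. Groups overlapped, and the difference between HSC and unstimulated BMDM of −0.40 ± 0.18 did not pass the test (limma, adjusted p = 0.0924). It changed sign to 0.03 with promoters of 500 bp to either side (adjusted p = 0.945).

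Irs1, at chr1:82233101-82291416 (minus strand), had a promoter low in H3K27ac and higher in H3K4me3. In H3K27ac its percentile was 21.6 to 47.5 in HSC (median 39.6), 20.1 to 53.4 in unstimulated BMDM (median 45.2) and 37.0 to 46.2 in stimulated BMDM (median 40.9), with a median place of 34620 in the list over the 33 libraries with a peak. In H3K4me3 the medians were 75.7, 64.4 and 66.3, and the median place was 6816. Neither state comparison was called in either mark (limma, adjusted p of 0.241 to 0.996). Among the top 20000 peaks, the Irs1 promoter region was held by 4 of 35 H3K27ac and 35 of 35 H3K4me3 libraries. A region inside the Irs1 intron, chr1:82282906-82284506, centered 7.7 kb from the start, was instead held by 34 of 35 H3K27ac libraries, and the region there in H3K4me3 by 32.

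The Irs1 promoter and this intron are shown because H3K27ac lay in the second more often than in the first. GC boxes are in capitals; the promoter is on the minus and the intron on the plus strand of GRCm38.
Irs1 promoter, chr1:82291390-82291689: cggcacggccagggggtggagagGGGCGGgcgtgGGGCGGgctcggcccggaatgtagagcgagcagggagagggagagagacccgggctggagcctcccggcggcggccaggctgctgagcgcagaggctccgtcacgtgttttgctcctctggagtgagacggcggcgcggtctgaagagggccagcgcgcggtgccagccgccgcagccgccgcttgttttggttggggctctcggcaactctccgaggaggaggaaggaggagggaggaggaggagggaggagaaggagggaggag
Irs1 intron, chr1:82283321-82283620: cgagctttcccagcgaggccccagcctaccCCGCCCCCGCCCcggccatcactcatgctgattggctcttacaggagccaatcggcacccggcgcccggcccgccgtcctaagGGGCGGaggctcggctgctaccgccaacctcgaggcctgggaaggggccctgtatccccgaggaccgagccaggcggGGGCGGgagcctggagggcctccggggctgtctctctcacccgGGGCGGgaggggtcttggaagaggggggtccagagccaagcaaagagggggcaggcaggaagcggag
The promoter has 28 CpG, a GC content of 71.3% and 2 GC boxes. The intron has 23 CpG, a GC content of 72.0% and 5 GC boxes, and no other searched motif.

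Of the FoxO genes, Foxo3 was higher in HSC and Foxo1 was not called. Foxo3, at chr10:42181841-42276755 (minus strand), had an H3K27ac percentile of 83.2 to 98.6 in HSC (median 93), 71.5 to 91.3 in unstimulated BMDM (median 82.6) and 76.4 to 93.7 in stimulated BMDM (median 85.4). HSC lay mostly above the macrophages, with overlap. The difference between HSC and unstimulated BMDM was 0.57 ± 0.12 (limma, adjusted p = 0.000297), and that with stimulation 0.13 ± 0.12 (adjusted p = 0.619). The median width of its promoter peak was 5075 bp in HSC against 3172 and 3355 bp in the BMDM states. Erythroid markers moved the same way, as given above for 4 of 4 genes, and their part in the Foxo3 and Igf1r differences was not tested.

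Foxo3 also held the largest number of H3K27ac regions of the 9 genes, 18, with 17 away from any start site. An intronic region at chr10:42247365-42248939, 28.6 kb into the gene, was held by 6 of 12 HSC and 0 of 23 BMDM libraries (HSC against unstimulated BMDM, Fisher's exact test, adjusted p = 0.0414). As for the small Igf1r introns, the call was lost without the 3 libraries set apart (exact adjusted p = 0.0579), and 1 HSC library covered 50% or more of the region. Another, chr10:42225437-42227379 at 50.3 kb, was held by 5 of 12 HSC, 9 of 11 unstimulated and 8 of 12 stimulated libraries. It was not called between HSC and unstimulated BMDM (exact adjusted p = 0.162). Of 59 H3K27ac regions in the 9 windows, 19 could reach significance between HSC and unstimulated BMDM and 7 were called, beside 33.1% of all regions that could. Of these, 4 were held more often in HSC, in Igf1r and Foxo3, and 3 more often in BMDM, in Igf1 and Igf2r.
Foxo3 intron, chr10:42247503-42247802 (plus strand): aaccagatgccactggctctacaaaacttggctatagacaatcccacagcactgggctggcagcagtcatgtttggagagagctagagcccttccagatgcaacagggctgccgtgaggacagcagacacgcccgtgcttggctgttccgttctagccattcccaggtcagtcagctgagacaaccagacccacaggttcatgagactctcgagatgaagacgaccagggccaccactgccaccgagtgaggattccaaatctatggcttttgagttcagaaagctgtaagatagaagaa
None of the searched motifs was found in this element, which has 7 CpG in 300 bases, whereas the Foxo3 promoter has 35 CpG, a GC content of 75% and 5 GC boxes.

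Foxo1, at chr3:52268336-52353221 (plus strand), kept a middle H3K27ac place. Its percentile was 59.7 to 72.4 in HSC (median 69.3), 56.6 to 77.4 in unstimulated BMDM (median 67.4) and 54.8 to 74.1 in stimulated BMDM (median 65.9), and the state differences were −0.00 ± 0.07 and −0.06 ± 0.07 (limma, adjusted p = 0.986 and 0.713). In H3K4me3 it ranked among the highest of the 9 genes, with medians of 94.7, 92.3 and 97.8.

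Ager was low in both marks and had the lowest H3K4me3 of the set. The gene spans only 3.08 kb at chr17:34597862-34600936 (plus strand), between Pbx2 and Rnf5. Its H3K27ac percentile was 17.7 to 51.2 in HSC (median 38.8), 16.1 to 51.9 in unstimulated BMDM (median 42.3) and 20.0 to 52.4 in stimulated BMDM (median 43.0), and 4 of 35 libraries held no promoter peak. The H3K4me3 medians were 17.7, 26.9 and 28.1, and 19 of 35 libraries held no peak. State differences were −0.01 ± 0.11 and 0.04 ± 0.11 in H3K27ac (limma, adjusted p = 0.956 and 0.906). Its own promoter region reached the top 20000 H3K27ac peaks in 2 of 35 libraries, and the other 5 of the 6 regions in its window lay at start sites of Notch4, Gpsm3, Pbx2, Agpat1 and Rnf5, of which 4 were held by all 35. The Ager promoter, like that of Igf1, was poor in CpG (4 in 300 bases, ratio 0.16).

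**Figure D3:**
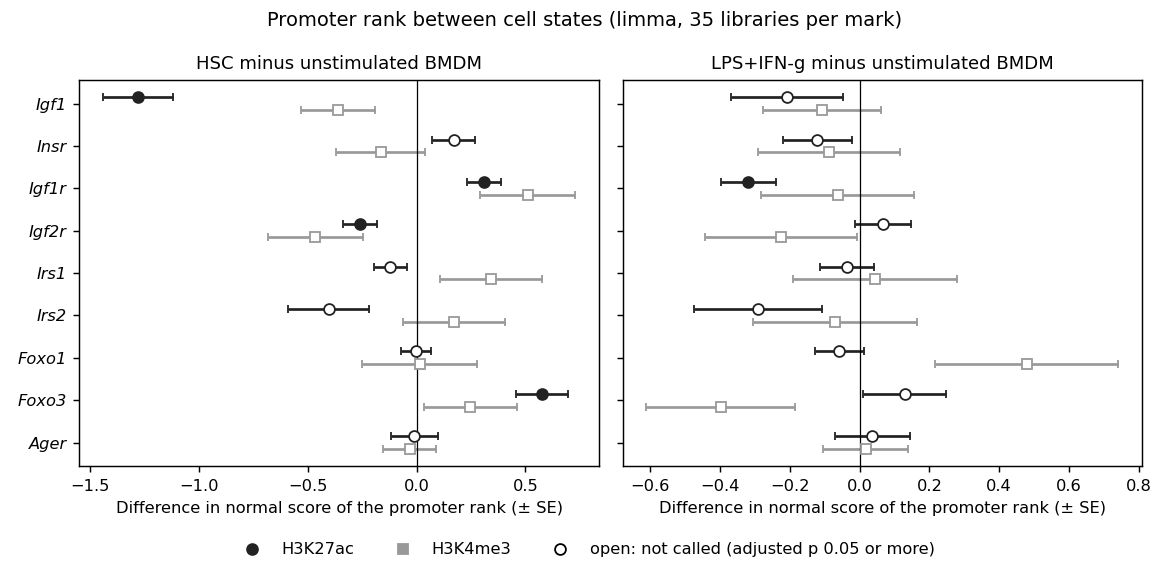
Difference in normal score of the promoter rank (horizontal axes, ± SE) for HSC minus unstimulated BMDM (left) and LPS+IFN-γ minus unstimulated BMDM (right), for H3K27ac (circles) and H3K4me3 (squares); filled symbols were called at a limma adjusted p under 0.05. In H3K27ac, Igf1 (−1.28) and Igf2r (−0.26) lie to the left and Foxo3 (0.57) and Igf1r (0.31) to the right of 0 in the HSC comparison, and Igf1r (−0.32) alone is filled for stimulation; no H3K4me3 symbol is filled.

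The 9 genes thus gave 4 calls between HSC and unstimulated BMDM in H3K27ac, 2 higher and 2 lower in HSC, where 30.5% of 16981 genes were called. The median difference was −0.01, against 0.00 over all genes tested. Without the 3 libraries set apart the same 4 genes were called by limma, Igf1 at −1.41, Foxo3 at 0.52, Igf2r at −0.26 and Igf1r at 0.25. In H3K4me3 the same comparison called 0 of the 9 by limma (3 at an unadjusted p under 0.05), where 15.0% of 17255 genes were called. The lowest adjusted p was 0.101 for Igf1r, at 0.51 ± 0.22, followed by −0.36 ± 0.17 for Igf1 (0.134) and −0.46 ± 0.22 for Igf2r (0.134). All 3 values had the sign of the H3K27ac difference of the same gene. Without the 3 libraries set apart, signs were opposite for Insr (0.21 in H3K27ac, −0.07 in H3K4me3), Irs1 (−0.17 and 0.30) and Irs2 (−0.40 and 0.17). Ager, Foxo1 and Foxo3 had matching signs there. The SE of the 9 genes was 0.12 to 0.26 in H3K4me3 and 0.07 to 0.18 in H3K27ac. For stimulation, H3K4me3 called 0 of the 9 genes and 0% of 17255 by limma (0 of 9 and 973 at an unadjusted p under 0.05), with the lowest adjusted p at 0.905 for Foxo3.

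Per gene, H3K4me3 ranged over the whole list. Igf1r had medians of 96.7 in HSC, 85.9 in unstimulated and 82.7 in stimulated BMDM, and Igf2r 72.5, 86.0 and 81.0. Igf1 stayed near the middle with 46.1, 54.5 and 58.5, and Foxo3 went from 91.3 to 85.9 and 77.2. Insr had medians of 76.6, 75.8 and 74.3, and Irs2 of 91.4, 87.9 and 88.0. In regions of the H3K4me3 lists, 1.53% of those tested were called between HSC and unstimulated BMDM and none of the 36 in the windows, the nearest being an Igf2r intron at chr17:12752119-12752841 with 0 of 12 against 6 of 11 holders (exact adjusted p = 0.0984). For stimulation 0% of regions were called in either mark (Fisher's exact test, 1646 of 14656 H3K27ac and 519 of 17070 H3K4me3 regions at an unadjusted p under 0.05).

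**Figure D4:**
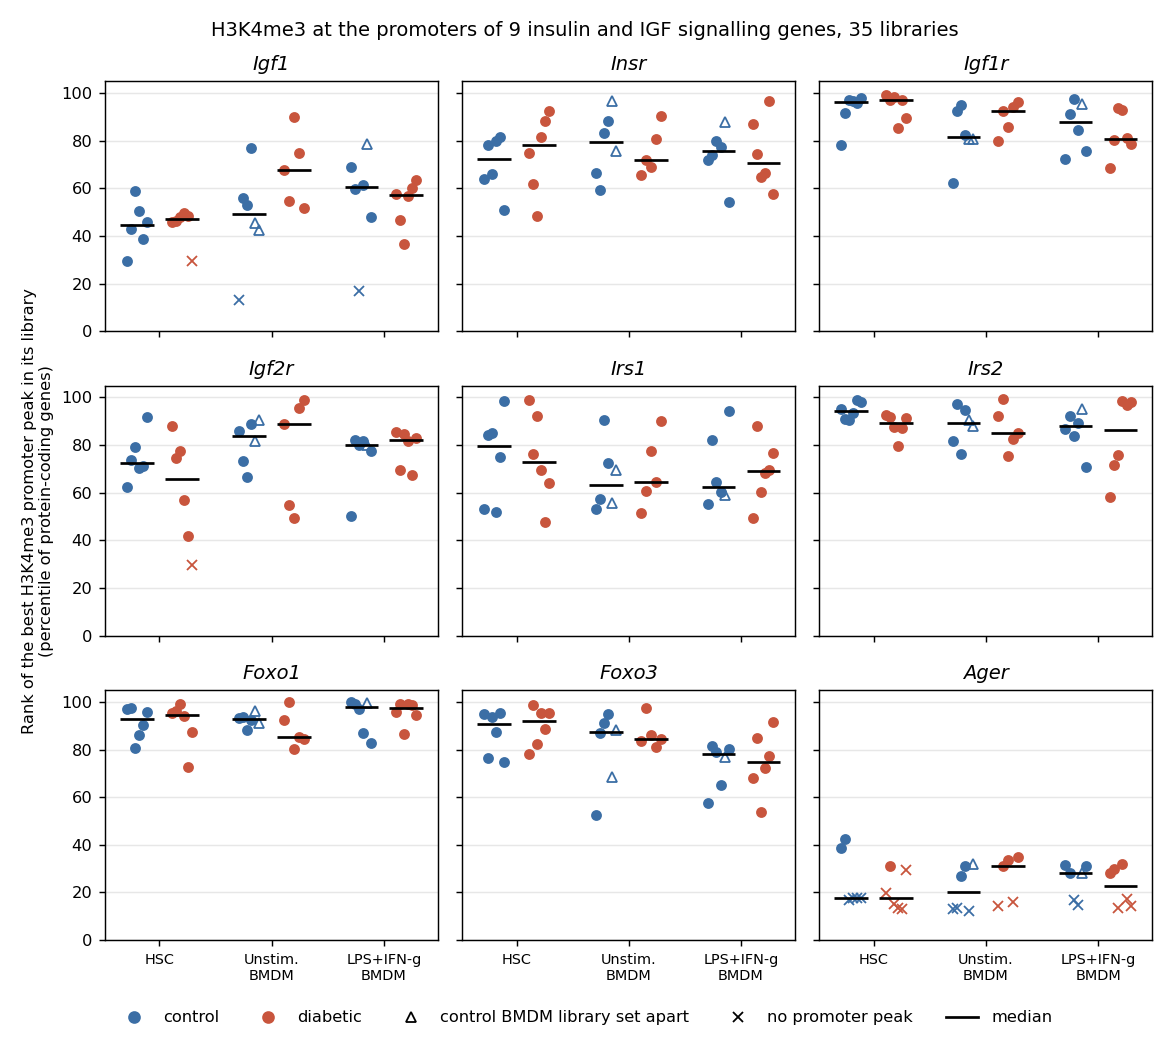
Percentile of the best H3K4me3 promoter peak (vertical axis, percent of protein-coding genes) of each of the 9 genes in 35 libraries, by cell state and disease, with the same symbols as for H3K27ac. The SD was larger than in H3K27ac in 46 of 54 groups of a gene, Ager has no peak in 19 libraries, and Igf1r has its highest median, 96.7, in HSC.

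Neighbors in the order of the 9 genes often did not differ beyond their spread. Over all 35 H3K27ac libraries the medians ran from Irs2 (96.8) through Foxo3 (86.7), Insr (74.8), Igf1 (69.9), Foxo1 (66.3), Igf1r (64.3) and Igf2r (60.4) to Ager (41.5) and Irs1 (41.3). Igf2r lay above Ager in 35 of 35 libraries, whereas Ager lay above Irs1 in only 11, Igf1r above Igf2r in 18 and Foxo1 above Igf1r in 19. In HSC, Foxo3 exceeded Insr and Foxo1 exceeded Igf2r in 12 of 12 libraries, and Igf1 stood above Irs1, the next gene, in 7 of 12. In unstimulated BMDM Igf1 came next after Foxo3, which exceeded it in only 5 of 11 libraries. In H3K4me3 the order over all libraries began with Foxo1 (94.2), Igf1r (91.4) and Irs2 (90.6), each above the next in 17 to 23 of 35, and ended with Igf1 (50.5) above Ager (19.9) in 31 of 35.

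**Figure D5:**
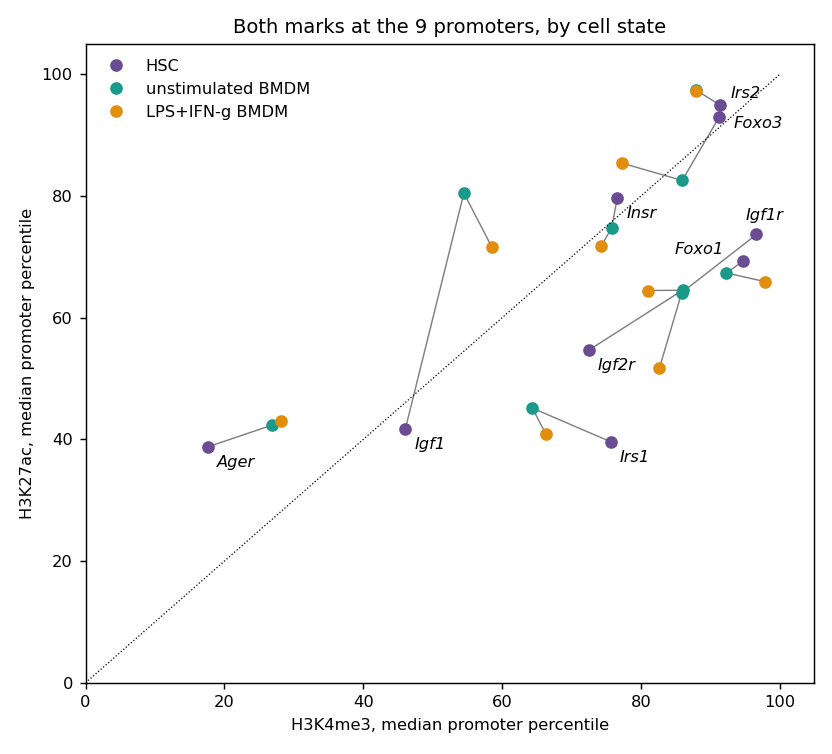
Median promoter percentile of H3K27ac (vertical) against H3K4me3 (horizontal) for each of the 9 genes in the 3 cell states, with lines joining the states of a gene and a dotted line of equal rank. Igf1 rises almost upright from HSC (41.7 in H3K27ac, 46.1 in H3K4me3) to unstimulated BMDM (80.5 and 54.5), Irs1 lies far below the dotted line, and Ager sits low in both marks.

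Diabetes changed none of the 9 promoters past the test, in any cell state or mark. In each of the 6 comparisons of diabetic with control libraries, limma called 0 of 9 genes and 0% of all genes. At an unadjusted p under 0.05 there were 396, 1002 and 757 of 16981 genes in H3K27ac (HSC, unstimulated and stimulated BMDM), of which 1, 2 and 1 were among the 9. In H3K4me3 there were 797, 728 and 877 of 17255, of which 0, 1 and 0 were. The median difference over the 9 genes was between −0.06 and 0.12.

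The 5 values under that unadjusted level were as follows. Insr in HSC had an H3K27ac percentile of 71.4 to 84.8 in diabetic and 78.1 to 92.5 in control libraries, a difference of −0.29 ± 0.14 (limma adjusted p = 0.9998). In unstimulated BMDM, Irs2 was at 97.8 to 99.9 in diabetic and 96.1 to 97.4 in control libraries, 0.56 ± 0.27 (limma adjusted p = 0.838). Irs1 was at 45.7 to 53.4 in diabetic and 20.1 to 45.2 in control libraries, 0.24 ± 0.11 (limma adjusted p = 0.838). Its lowest control library, replicate 5, held no peak and is among the 3 set apart. Without these the difference was 0.15. How many of all genes had groups without overlap in this comparison was not counted. Igf1 in stimulated BMDM was at 63.4 to 74.2 in diabetic and 61.9 to 99.2 in control libraries, −0.48 ± 0.22 (limma adjusted p = 0.988), and the highest control library was again replicate 5; without the 3 libraries the difference was −0.20. In H3K4me3, Igf1 in unstimulated BMDM was at 51.8 to 90.1 in diabetic and 12.9 to 76.9 in control libraries, 0.59 ± 0.24 (limma adjusted p = 0.9999), or 0.38 without control replicate 1. When ranked on fold, the H3K27ac differences were −0.58 for Insr, 0.30 for Irs2, 0.38 for Irs1 and −0.76 for Igf1. Control libraries are shared between these and the state comparisons.

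Regions in the windows gave the same count of calls for diabetes, 0 of those tested in every cell state and mark by Fisher's exact test, where 0% of all regions were called (14 to 91 regions at an unadjusted p under 0.05). Few regions in the windows had numbers of holders that could be tested. In HSC, unstimulated and stimulated BMDM these were 7, 2 and 2 of 59 in H3K27ac and 4, 2 and 1 of 36 in H3K4me3. The smallest p belonged to a coding exon of Igf1r, chr7:68164675-68165747, held in H3K27ac by 4 of 5 diabetic and 0 of 6 control unstimulated BMDM libraries (exact p = 0.0152, adjusted p = 0.977). All 6 control libraries had a deposited peak there below the top 20000, the best at place 23342. The regions given next had too few or too many holders to reach an exact p of 0.05 even before adjustment. They were not among those tested, so their p is a description. In HSC the Igf1r intron at chr7:67995422-67996230 was held by 4 of 6 diabetic and 0 of 6 control libraries (exact p = 0.0606). The nearest for stimulated BMDM was the Insr intron at 58.3 kb, held by 4 of 6 diabetic and 6 of 6 control libraries (exact p = 0.455). In H3K4me3 these were a coding exon of Foxo3, chr10:42196646-42198038, with 3 of 5 diabetic and 0 of 6 control unstimulated libraries (exact p = 0.0606), the Igf2r promoter in HSC with 4 of 6 and 6 of 6 (exact p = 0.455), and a region at the Agpat1 and Rnf5 starts near Ager in stimulated BMDM with 4 of 6 and 0 of 6 (exact p = 0.0606). Whether the diabetic and control libraries differed in their response to stimulation was tested as an interaction, and limma called 0 of the 9 genes and 0 of all genes in both marks (lowest adjusted p of the 9 genes, 0.77 in H3K27ac and 0.98 in H3K4me3). For the difference between HSC and unstimulated BMDM the interaction also called 0 of the 9 genes in both marks (lowest adjusted p, 0.9999 and 0.9998).

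The wider pathway was read from a list of 72 further genes, of which 66 were tested in H3K27ac and 69 in H3K4me3. Between HSC and unstimulated BMDM, H3K27ac was higher in HSC for 6 of the 66 and lower for 11, with a median difference of −0.01, where 30.5% of all genes were called. Among PI3K and AKT genes 3 of 13 were higher and 3 lower. Akt2 (0.48, limma adjusted p = 0.00462) and Pik3r3 (0.37, 0.0057) were among those higher in HSC, and Pik3r1, the main regulatory subunit of PI3K, was lower (−0.69, 5.28e-05). In the mTOR arm Rictor, a core subunit of mTOR complex 2, was higher (0.99, 1.12e-06) and Tsc1 lower (−0.41, 0.0194). Among the inhibitors Inppl1, which encodes a phosphatase acting on the lipid made by PI3K, was lower in HSC (−0.79, 1.03e-06). Lgals3, whose product galectin-3 binds advanced glycation end products, was lower in HSC (−0.81, 8.93e-06). Of 14 FoxO family members and targets, 1 was higher, Txnip (0.28, 0.0152), and 2 were lower, Bcl2l11 (−0.58, 4.36e-05) and Cited2 (−0.54, 0.000665). Tsc1, Txnip, Cited2 and the genes named next fell outside the 4 smallest p in their direction and are named after their values were seen. Ligands and binding proteins had 1 of 8 higher, Igfals, and 1 lower, Igfbp6, and 1 of 11 receptors and adaptors, Gab1, was lower (−0.46, 0.000182).

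In H3K4me3 the same comparison gave 9 of 69 genes higher and 2 lower in HSC, where 15.0% of all genes were called. The higher genes included the phosphatase gene Ptprf (0.60, limma adjusted p = 0.0052), the Ager ligand gene Hmgb1 (0.79, 0.00652), the S6 kinase gene Rps6kb1 (0.83, 0.012) and the binding protein gene Igfbp2 (0.54, 0.015). The lower genes were Fbxo32 (−0.64, 0.0251), a FoxO target, and Cited2 (−0.62, 0.0412), which was lower in H3K27ac too. For stimulation 1 of 66 genes was called in H3K27ac, the adaptor gene Sh2b2 (0.76, limma adjusted p = 0.0398), where 2.43% of all genes were called, and 0 of 69 in H3K4me3, where 0% were. For diabetes 0 were called in any of the 6 comparisons, where 0% of all genes were called.

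The genes whose H3K27ac promoter score followed a member most closely over the 35 libraries were, by Pearson r, Arhgap5 (0.85) and Lpcat2 (0.84) for Igf1, Hmgb3 (0.87) and Stk17b (0.85) for Igf1r, Zfp804a (0.79) and Depdc7 (0.78) for Igf2r, and Slc38a5 (0.79) and Kel (0.79) for Foxo3. For Irs1 they were Drd4 (0.75) and Nkain1 (0.75), for Ager Dcps (0.78) and Arf4 (0.72), for Insr the histone genes Hist1h2an and Hist1h2bp (0.69, tied), for Irs2 Akain1 (0.65) and Gabrg3 (0.61), and for Foxo1 Cldn10 (0.64) and Slc25a43 (0.62). These were the closest of 16981 genes compared, and libraries share cell state and list length, so these values describe the libraries only. Some of these genes lay near the lowest place, which genes without a peak share. Zfp804a had median percentiles of 16.2, 20.3 and 18.9 in HSC, unstimulated and stimulated BMDM. Akain1 and Gabrg3 each had 16.2 in HSC, and Slc38a5 had 16.6 and 16.4 in unstimulated and stimulated BMDM. None lay within 1 Mb of its partner. Kel, which encodes a red cell surface protein, had a median percentile of 42.6 in HSC and 16.1 in unstimulated BMDM, and Lpcat2 66.9 and 93.9.

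Promoter sequence set Igf1 and Ager apart from the other members. RefSeq promoters (GRCm38.p6, 250 bases before to 50 after a start) were matched for 8 of the 9 genes, all but Insr. Foxo1 and Foxo3 each had 5 GC boxes, Igf2r 3, Igf1r 2, Irs1 2, Irs2 1, and Igf1 and Ager 0, where 35.7% of 32851 promoters held at least 1. The observed-over-expected CpG ratio was 0.83 to 1.11 in the 6 genes with a GC box and 0.31 and 0.16 in Igf1 and Ager. A forkhead motif (TGTTTAC, in 3.65% of promoters) and a TATA box (TATAAA, 13.6%) were in none of the 8, on either strand.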

How the data were processed

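H3K27ac and H3K4me3 ChIP-seq peak lists were read for 70 libraries (35 per mark); 36 input samples without a list were not used. The authors deposited narrow peaks on GRCm38 with a score, a fold enrichment (ratio), a −log10 p and a −log10 q for each peak, the lowest −log10 q being 1.30104. The submitters' processing notes name Trim Galore 0.3.3, cutadapt 1.8, FastQC 0.11.3, Bowtie2 2.2.6, Picard, MACS2 2.2.7.1 and bedtools 2.19.1, without their roles. Peaks were called per library, so peak number moves with depth, which the lists do not give; ranks within a library were therefore compared. Earlier results of these data left the scaling of 4 H3K4me3 lists unclear (control unstimulated 6, control LPS+IFN-γ 6, and diabetic LPS+IFN-γ 1 and 2), which was not tested here; they were kept, and left out in an alternative. Summits of 1 interval were collapsed into 1 peak.

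Promoters (1 kb either side of every GENCODE M21 start site) took their best −log10 p, ranked over 21938 protein-coding genes and turned into a normal score. Genes with a promoter peak in 5 or more of 35 libraries were fitted with limma 3.58.1 (R 4.3.3) over 6 groups, averaging control and diabetic libraries for cell states, with Benjamini-Hochberg adjustment over all genes tested. Regions were merged from the top 20000 peaks of each library, kept when held by 2 or more libraries and tested with the two-sided Fisher's exact test, adjusted over regions able to reach 0.05; gene windows had 20 kb flanks. The scripts were tested on simulated data.

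Named were the 9 members, at most 4 called pathway genes per direction and comparison by smallest adjusted p, called regions (the 6 with the smallest p where there were more), the region with the smallest p in a comparison without a call, and for each member the 2 genes with the highest Pearson r; others are marked in the text. Some called pathway genes are not reported here by name. The members, lists and tests were chosen with earlier results of these data known. Alternatives were rank on fold, a promoter of 500 bp, summits only, basic coding start sites, −log10 q of at least 2, the top 10000 peaks, no filter, list length as a covariate, a replicate block, Fisher's exact test on promoter presence, 50% coverage of regions, and libraries left out. Sequences are from RefSeq (GRCm38.p6).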

Additional observations from a re-analysis of the deposited data

Results flagged for a closer look

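In 108 groups of 5 or 6 libraries (9 genes, 2 marks, 6 groups), 5 had a library far from the others by Dixon's criterion at 95%, and chance alone gives about 1 in 20. In H3K27ac, Irs1 in control unstimulated BMDM replicate 5 held no promoter peak and stood at a percentile of 20.1, with the next library at 39.1; this library is among the 3 set apart. The other 4 were in H3K4me3. Igf1r in control HSC replicate 1 was at 78.3, with the next at 91.4. Igf2r in control LPS+IFN-γ BMDM replicate 1 was at 50.3, with the next at 77.7. Igf1 in diabetic HSC replicate 6 held no peak and was at 29.6, with the next at 45.9. Foxo1 in diabetic LPS+IFN-γ BMDM replicate 3 was at 86.5, with the next at 94.7.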

How the results depend on the processing

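Of the 9 genes, the 4 H3K27ac promoter calls between HSC and unstimulated BMDM became 0 with Fisher's exact test on promoter presence (397 of all genes called against 5182; genes with a peak in every library cannot be called by it) and 4 to 5 with 1 library left out. The count was again 4 in 9 of 10 alternatives, but not always for the same genes. When ranked on fold, Igf1r was not called and another of the 9 genes, not named here, was. For stimulation the 1 call became 2 without the 3 libraries set apart, 0 when ranked on fold and 0 with Fisher's exact test (1087, 72 and 0 of all genes against 412). H3K4me3 between HSC and unstimulated BMDM went from 0 to 1 when ranked on fold, to 1 with only summits in promoters, and to 0 to 1 with 1 library left out (Igf1, without control unstimulated BMDM replicate 1). Counts over all genes there went from 2592 to 7539 with no filter, 361 with list length as a covariate, 1670 without the 3 libraries, 734 on fold and 359 with Fisher's exact test; without the 4 H3K4me3 libraries of unclear scaling it was 2242, with 0 of the 9 genes. The Irs2 H3K27ac difference between HSC and unstimulated BMDM reversed to 0.0271 with promoters of 500 bp. The 7 H3K27ac regions called in that comparison became 3 with 50% coverage, 27 with limma on region ranks (21023 of all regions against 5344), 4 without the 3 libraries, and 4 to 8 with 1 library left out (4 without diabetic HSC replicate 5 and 4 without control HSC replicate 3). The 0 H3K27ac regions called for stimulation became 4 with limma, and the 0 H3K4me3 regions between HSC and unstimulated BMDM became 1 with 50% coverage and 3 with limma (5100 of all regions against 248). The count over all regions that limma called for stimulation is not given here, also for the replicate block below. The region counts for stimulation are therefore no result about the 9 genes. The causes were not tested. Stimulated and unstimulated diabetic BMDM with the same replicate number had r of 0.0394 to 0.347 in H3K27ac (mean 0.149, against −0.0294 for other numbers) and 0.0128 to 0.275 in H3K4me3; not every pair was over 0.1 and other kinds of pair went down to −0.264, so the numbers were not taken to pair samples. With a replicate block the promoter calls on the 9 genes were again 4, 1 and 0, with 247 of all genes called for stimulation in H3K27ac; in limma on region ranks the block gave 28 H3K27ac regions between HSC and unstimulated BMDM, 2 for stimulation and 3 in H3K4me3. The 0 calls for diabetes stayed at 0 in every alternative run.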
